A study of Mus musculus with 12 samples.

Results

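Liver-enriched transcription factors are the regulators that keep hepatocyte genes on, and 9 of them are described here in the livers of obese mice with and without ethionine. The 9 genes were chosen by name, as Hnf4a, Foxa1, Foxa2, Foxa3, Cebpa, Cebpb, Onecut1, Prox1 and Nr5a2, and all 9 were found among the 56205 genes of the count table, of which 24871 had a count. RNA was taken from whole livers of 12 ob/ob mice (B6.Cg-Lep ob/J), all stated to be male, with 1 poly(A)-selected library per mouse. All of the mice lack leptin and become obese, controls included, and they were between 8 and 10 weeks old when treatment began. The 6 OBOB_FLO mice ate standard chow alone, and the 6 OBOB_Fibrotic mice ate the same chow and received DL-ethionine, the ethyl analogue of methionine. The labels give the ethionine as 0.165% in drinking water for 2 weeks in one field and as an injection of 0.15% in another, and the written methods give a shorter exposure. There was no lean or leptin-sufficient group. The word fibrotic below is the label of the ethionine group, not a finding about the tissue. The study reports microvesicular steatosis and inflammation for ethionine-treated ob/ob mice, and saw no difference in their Col1a1 expression.

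These factors work as a network. HNF4A and NR5A2 (also called LRH-1) are nuclear receptors, the FOXA proteins are forkhead factors that can open closed chromatin, and the C/EBP proteins are leucine-zipper factors. ONECUT1 (HNF6) is a cut-homeodomain protein, and PROX1 is a homeodomain protein that binds HNF4A and NR5A2 and represses through them. In liver they bind one another's genes as well as those for plasma proteins, lipid transport, glucose production and bile acid synthesis.

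Total counts per library lay between 17815568 and 24814263, and the 12 libraries fell into their labelled groups on the first principal component. FLO library 3 held 3773 counts of Xist, against 0 to 4 in the other 11 libraries, and 4 counts of Ddx3y, against at least 556, which goes against the stated male sex. It stayed in the FLO group, and results are also given without it. TMM scaling factors were 0.965 to 1.20 in fibrotic and 0.913 to 0.963 in FLO libraries. Scaling to total counts instead moved the median log2 fold change of all tested genes from 0.03 to 0.20 and the share of calls that were higher from 53.3% to 71.8%.

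Cebpb was called higher and Onecut1 lower, and the other 7 factors did not meet both limits of a call. Levels are in CPM, read counts scaled to library size, and a call needed an edgeR adjusted p of at most 0.01 and a log2 fold change beyond 0.5 in either direction, fibrotic against FLO. So 1 of 9 factors was called higher, where 15.9% of the 13416 tested genes were, and 1 of 9 was called lower, where 14.0% were. All 9 passed the low-count filter. The groups did not overlap for 1 of the 9, Cebpb, against 30.4% of all tested genes. The median log2 fold change of the 9 was -0.08, against 0.03 over all tested genes, and turned to 0.10 against 0.20 under total-count scaling. These shares were not larger than those of the background, and without FLO library 3 the same counts of 1 higher and 1 lower were obtained. The call of Onecut1 was lost without FLO library 4 and under total-count scaling.

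**Figure D1:**
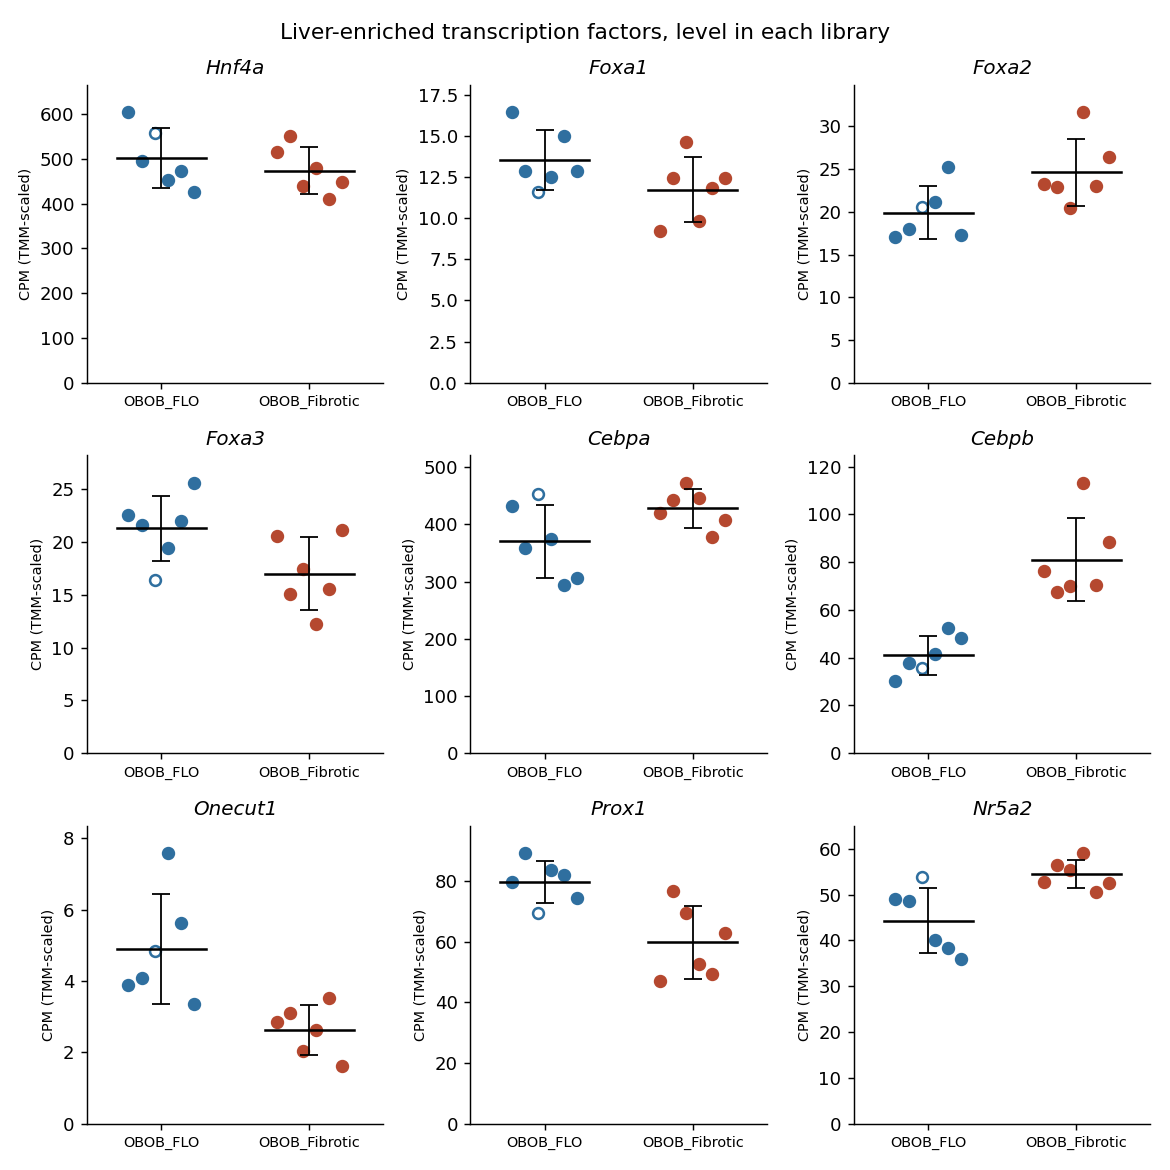
Level of each of the 9 factors in every library, in CPM (TMM-scaled), with 6 OBOB_FLO libraries in blue and 6 OBOB_Fibrotic libraries in red. Horizontal lines are means, bars are SDs, and the open circle is FLO library 3. Only for Cebpb do all fibrotic points, from 67.6 CPM, lie above all FLO points, which reach 52.4 CPM.

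Promoters of the factors at the centre of these differences are shown first. They are the 250 bases before the RefSeq start of Cebpb, its paralog Cebpa and Onecut1, taken from RefSeq on GRCm38, the assembly that the labels call mm10. The Cebpb window is chr2:167688665-167688914, plus strand. That of Cebpa is chr7:35119043-35119292, plus strand, and that of Onecut1 is chr9:74861671-74861920, plus strand. Capitals mark the letters TGACG, the core of the cyclic AMP response element, on either strand, and the letters of the TATA box.
Cebpb: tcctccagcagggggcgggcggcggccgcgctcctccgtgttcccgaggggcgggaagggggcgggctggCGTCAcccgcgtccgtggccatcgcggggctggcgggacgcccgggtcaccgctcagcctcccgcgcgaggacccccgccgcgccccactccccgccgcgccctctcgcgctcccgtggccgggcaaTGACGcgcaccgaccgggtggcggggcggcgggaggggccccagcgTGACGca
Cebpa: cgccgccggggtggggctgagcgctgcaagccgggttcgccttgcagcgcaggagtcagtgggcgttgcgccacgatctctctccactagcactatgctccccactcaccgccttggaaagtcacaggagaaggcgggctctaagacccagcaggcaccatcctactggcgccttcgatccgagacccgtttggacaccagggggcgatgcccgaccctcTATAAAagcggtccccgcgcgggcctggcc
Onecut1: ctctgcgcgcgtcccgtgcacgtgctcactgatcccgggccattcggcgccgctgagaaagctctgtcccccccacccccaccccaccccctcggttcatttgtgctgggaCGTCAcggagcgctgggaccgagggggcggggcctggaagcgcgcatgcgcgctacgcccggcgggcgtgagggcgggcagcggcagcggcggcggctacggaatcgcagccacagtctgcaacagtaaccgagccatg
The Cebpb window held 3 of these response element cores and the Onecut1 window held 1. At least 1 was found in 17.8% of 32851 mouse promoter windows of this length, both strands searched, and at least 3 in 0.688%. The limit of 3 is the number in the Cebpb window itself, and windows of like base content were not compared, so 0.688% does not measure how unusual that window is. The TATA letters (TATAAA) were present in the Cebpa window, in 5 of the 14 windows annotated for the 9 genes and in 12.4% of all windows. The 14 windows, each before 1 of the annotated RefSeq starts and some of them inside the gene's full span, were also searched for letters of other factors: for Foxa proteins TGTTTAC and the looser TGTTTNC that includes it, for C/EBP proteins TTGCNNAA, for Onecut proteins ATCAAT or the rarer ATCGAT, for Nr5a proteins AAGGTCA, for Hnf4 proteins the short CAAAG, and for the general promoter box CCAAT, each on both strands. The Foxa letters TGTTTAC occurred in 1 of the 14, that of Foxa1, which lies inside the span of the gene given below, and in 3.17% of all windows. The looser TGTTTNC occurred in 3 of the 14 and in 17.8% of all windows. The C/EBP letters TTGCNNAA occurred in 1 of the 14 (Nr5a2) and in 9.56% of all windows. The Onecut letters ATCAAT occurred in 2 of the 14 (Foxa2 and Hnf4a) and in 6.72% of all windows. The short CAAAG occurred in 6 of the 14 and in 48.6% of all windows, and CCAAT in 6 of the 14 and in 33.8%. The letters ATCGAT and AAGGTCA occurred in 0 of the 14 and in 0.728% and 4.08% of all windows. These matches are letters in a window and were not tested as binding sites.

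Levels of the genes relative to one another were compared per kilobase of exon, since longer transcripts give more reads. In FLO livers Cebpa was highest at 140 ± 24.4 CPM per kb (SD, n = 6), followed by Hnf4a at 104 ± 13.9 CPM per kb (SD, n = 6), and their ranges overlapped. Cebpb followed at 27.3 ± 5.48 CPM per kb (SD, n = 6), apart from both neighbours. Foxa3, Prox1, Foxa2 and Nr5a2 lay close together, from 10.5 down to 7.51 CPM per kb on average, and each overlapped the next. Foxa1 at 4.07 and Onecut1 at 1.19 CPM per kb were the lowest, each apart from the factor above it. In fibrotic livers the first 3 places were unchanged but no longer overlapped, with Cebpa at 162 ± 12.7, Hnf4a at 98.1 ± 10.8 and Cebpb at 53.9 ± 11.7 CPM per kb (SD, n = 6). Foxa2, Nr5a2, Foxa3 and Prox1 followed in that order of mean level, with Foxa2 and Nr5a2 now above Foxa3 and Prox1, and these 4 again overlapped from one to the next.

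Hnf4a (chromosome 2, 163506808 to 163572910, plus strand; ENSMUSG00000017950) encodes the nuclear receptor that holds much of hepatocyte gene expression in place. Its level was 410 CPM at the lowest, 464 at the median and 550 at the highest in fibrotic libraries, and 426, 484 and 605 CPM in FLO libraries. The groups overlapped almost wholly. The fibrotic and FLO means were 474 ± 52.0 and 501 ± 67.2 CPM (SD, n = 6 each), which differed by -0.08 on the log2 scale (SE 0.11, 95% interval -0.31 to 0.14, adjusted p = 0.536), which turned to 0.10 under total-count scaling. The interval does not reach a change of 0.5 on the log2 scale in either direction.

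Known HNF4A target genes were lower more often than higher. Of 17 tested, 7 were called lower, 1 was called higher and 9 were not called, with a median log2 fold change of -0.59. Among all tested genes 14.0% were called lower and 15.9% higher. The hepatocyte markers given below moved in a like way, with 6 of 16 called lower, 2 called higher and a median of -0.46. Apoa2, Apob and Ttr are in both lists, so the fall is not particular to HNF4A targets. Otc, the urea cycle enzyme ornithine transcarbamylase, fell from 311 ± 36.7 to 128 ± 59.9 CPM (SD, n = 6; log2 fold change -1.28, adjusted p = 0.00171). Pck1, which commits carbon to glucose production, fell from 3404 ± 701 to 1609 ± 503 CPM (SD, n = 6; log2 fold change -1.08, adjusted p = 0.000271). Both had groups that did not overlap. Ambp, the precursor of alpha-1-microglobulin and bikunin, and F9, coagulation factor IX, fell by 0.92 and by 0.79 on the log2 scale (adjusted p = 9.23e-06 and 2.96e-06). The single gene called higher, Apoc3, an apolipoprotein that slows triglyceride clearance, is named because it stood alone, and had a log2 fold change of 0.65 (adjusted p = 0.000316). Apom, an apolipoprotein of high-density lipoprotein, had 0.10 and was not called (adjusted p = 0.563). Leaving out FLO library 3 gave 6 targets called lower and a median of -0.61. Over all single omissions 6 to 8 were called lower, and DESeq2 and limma-voom each called 9 lower. Under total-count scaling 5 were called lower, with a median of -0.40.

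Nr5a2 (chromosome 1, 136842571 to 136960448, minus strand; ENSMUSG00000026398) encodes LRH-1, a nuclear receptor of bile acid and cholesterol genes. It measured 50.6, 54.0 and 59.1 CPM (lowest, median and highest) in fibrotic libraries and 36.0, 44.3 and 53.9 CPM in FLO libraries. All 6 fibrotic libraries lay above the FLO median, and the groups overlapped through FLO library 3, the highest of its group. The means were 54.4 ± 3.10 and 44.3 ± 7.10 CPM (SD, n = 6), with 0.30 as the log2 fold change (SE 0.10, 95% interval 0.09 to 0.50, adjusted p = 0.0191), which was not called. It came to 0.36 (adjusted p = 0.00527) without FLO library 3, still under the fold limit.

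Among 9 known NR5A2 target genes, 1 was called higher and 3 were called lower, against 15.9% and 14.0% of all tested genes. Their median of -0.23 came to -0.09 without FLO library 3 and to -0.10 without fibrotic library 3. It was -0.36 without FLO library 4 and -0.04 under total-count scaling. Apoa1, the main protein of high-density lipoprotein, fell from 2445 ± 622 to 765 ± 117 CPM (SD, n = 6; log2 fold change -1.68, adjusted p = 7.93e-07). Abcb11, the bile salt export pump, fell by 0.94 (adjusted p = 9.85e-05). Abcg5, one part of the sterol exporter, rose from 73.7 ± 8.69 to 118 ± 12.6 CPM (SD, n = 6; log2 fold change 0.67, adjusted p = 3.08e-05). Its partner Abcg8 had 0.20 and Scarb1, the receptor for high-density lipoprotein, had -0.08 (0.10 under total-count scaling), and neither was called (adjusted p = 0.108 and 0.383). Cyp7a1, the rate-limiting enzyme of bile acid synthesis, is named because it fell just outside the limit. Its log2 fold change was 1.13 (adjusted p = 0.0102), and it was called without FLO library 3 (1.32, adjusted p = 0.00366), FLO library 6 (0.94, adjusted p = 0.00609) or fibrotic library 5 (1.27, adjusted p = 0.00399), which made 2 targets called higher. With all libraries kept, Cyp7a1 was called by DESeq2 (1.11, adjusted p = 0.00462), by limma-voom (1.22, adjusted p = 0.00998) and under total-count scaling (1.30, adjusted p = 0.00446). RLE and upper-quartile scaling left 1 target called higher.

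**Figure D2:**
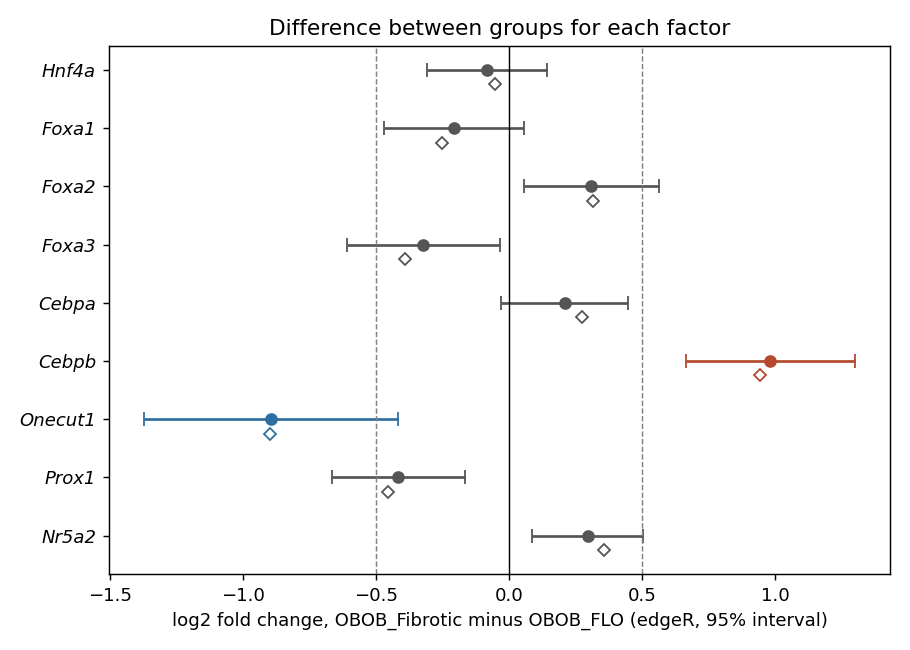
Log2 fold change of each factor, OBOB_Fibrotic minus OBOB_FLO, with its 95% interval (filled circles, edgeR, 6 against 6 libraries), and the value without FLO library 3 (open diamonds). Dashed lines mark the fold limit of 0.5. Cebpb at 0.98 and Onecut1 at -0.89 lie beyond it, and the other 7 lie between -0.42 and 0.31.

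The forkhead factors FOXA1, FOXA2 and FOXA3 share a DNA-binding domain and overlap in the sites they bind. Foxa1 (chromosome 12, 57540628 to 57546916, minus strand; ENSMUSG00000035451) measured 9.21, 12.1 and 14.7 CPM (lowest, median and highest) in fibrotic libraries and 11.6, 12.9 and 16.5 CPM in FLO libraries. Foxa2 (chromosome 2, 148042877 to 148046969, minus strand; ENSMUSG00000037025) measured 20.4, 23.2 and 31.7 CPM in fibrotic and 17.1, 19.3 and 25.2 CPM in FLO libraries. Foxa3 (chromosome 7, 19013284 to 19023538, minus strand; ENSMUSG00000040891) measured 12.3, 16.5 and 21.2 CPM in fibrotic and 16.4, 21.8 and 25.7 CPM in FLO libraries. The groups overlapped for all 3 genes, with all 6 fibrotic libraries above the FLO median for Foxa2 and none above it for Foxa3. The log2 fold changes were -0.21 for Foxa1 (SE 0.12, 95% interval -0.47 to 0.05), 0.31 for Foxa2 (SE 0.12, 95% interval 0.06 to 0.56) and -0.32 for Foxa3 (SE 0.14, 95% interval -0.61 to -0.03). None was called by edgeR (adjusted p = 0.172, 0.0403 and 0.0574). Foxa2 was called under total-count scaling, at 0.50 (adjusted p = 0.00844).

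The summed level of the 3 forkhead genes differed between groups by less than the spread between libraries, while Foxa2 held a larger mean share of it in fibrotic livers. The sum came to 22.3 ± 1.66 CPM per kb in fibrotic and 22.9 ± 1.92 CPM per kb in FLO livers (SD, n = 6 each). Foxa2 held 46.7 ± 6.89% of it in fibrotic and 36.7 ± 5.33% in FLO livers, Foxa3 held 37.4 ± 6.06% and 45.5 ± 4.90%, and Foxa1 held 15.9 ± 3.09% and 17.8 ± 1.79% (SD, n = 6 each). Ratios between genes were then taken within each library, where scaling does not enter. The mean log2 ratio of Foxa3 to Foxa2 was 0.10 ± 0.36 (SD, n = 6) in FLO and -0.54 ± 0.44 (SD, n = 6) in fibrotic livers, a difference of -0.64 (two-sided exact permutation test, p = 0.0173, adjusted over 5 ratios 0.0487). It was below the FLO median in 6 of 6 fibrotic libraries. That adjusted p rose to between 0.0541 and 0.0974 without any one of fibrotic libraries 1, 2, 4, 5 and 6 or FLO libraries 1, 2, 4 and 6, with differences between -0.71 and -0.48. Without FLO library 3 the difference was -0.72 (exact permutation, adjusted p = 0.0406). For Foxa1 to Foxa2 the difference was -0.52, from -0.55 ± 0.29 to -1.07 ± 0.41 (SD, n = 6; exact permutation p = 0.0303, adjusted 0.0505). It passed 0.05 without FLO library 3, at -0.57 (exact permutation, adjusted p = 0.0406), and without fibrotic library 3, at -0.64 (exact permutation, adjusted p = 0.0108). For Foxa3 to Foxa1 the difference was -0.12 (exact permutation p = 0.481, adjusted 0.481).

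Genes known to need FOXA factors did not share a direction. Of 8, 2 were called higher and 1 was called lower, against 15.9% and 14.0% of all tested genes. Their median was 0.00 and ran from -0.03 to 0.16 over the other settings. Afp, the fetal serum protein whose gene carries FOXA sites, rose from 1.04 ± 0.228 to 34.6 ± 46.1 CPM (SD, n = 6; log2 fold change 5.04, adjusted p = 0.000666), a call not made by limma-voom (adjusted p = 0.0240). Its fibrotic libraries measured 5.40, 9.22, 13.3, 14.1, 40.6 and 125 CPM, all above the FLO libraries. The highest was fibrotic library 4, and without it the fibrotic mean of Afp was 16.5 ± 13.9 CPM (SD, n = 5). The log2 fold change of Afp was then 3.98 and was still called (adjusted p = 5.97e-05). Igfbp1, a secreted binder of insulin-like growth factors, rose from 87.9 ± 53.1 to 223 ± 75.8 CPM (SD, n = 6; log2 fold change 1.34, adjusted p = 0.00528). Igfbp1 lost its call, and the list 1 of its 2 genes called higher, without any one of FLO libraries 1, 2, 3 and 5 or fibrotic libraries 3, 4 and 6 (log2 fold changes 1.17 to 1.36, adjusted p from 0.01005 to 0.0157). Pck1, given above, was the gene called lower. Transferrin, with 0.13, and Ttr, transthyretin, with -0.14 (0.02 under total-count scaling), were not called (adjusted p = 0.373 and 0.445).

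**Figure D3:**
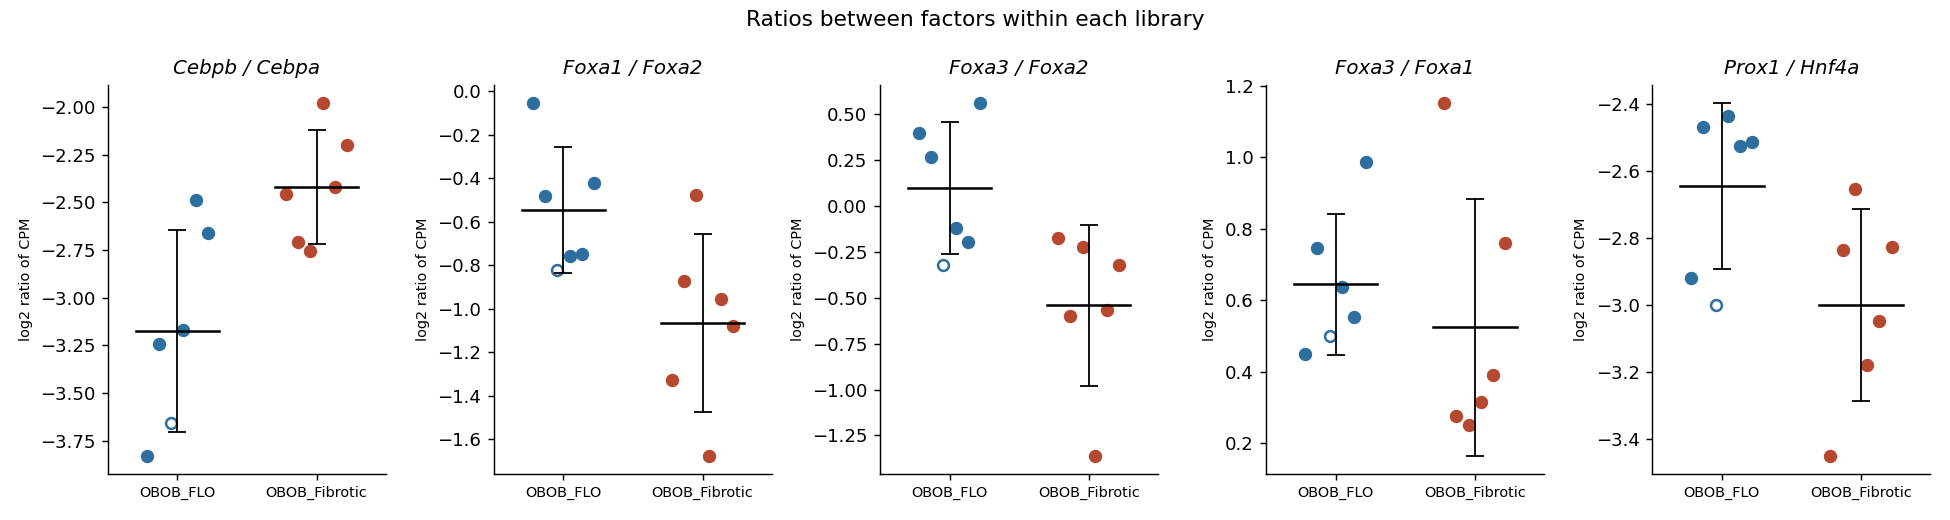
Log2 ratio of CPM between pairs of factors within each library, with OBOB_FLO in blue, OBOB_Fibrotic in red, means as lines and SDs as bars (6 libraries a group); the open circle is FLO library 3. Cebpb to Cebpa is higher in fibrotic libraries by 0.76 while Foxa3 to Foxa2 differs by -0.64 and Foxa3 to Foxa1 by -0.12, and every pair of groups overlaps.

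The C/EBP paralogs differed in size of change. C/EBP-alpha holds back proliferation and drives metabolic genes in the adult liver, and C/EBP-beta takes part in the acute phase, in stress responses and in regeneration. Cebpa (chromosome 7, 35119293 to 35121928, plus strand; ENSMUSG00000034957) measured 378, 431 and 473 CPM (lowest, median and highest) in fibrotic libraries and 295, 367 and 454 CPM in FLO libraries. The groups overlapped, and the log2 fold change of 0.21 (SE 0.11, 95% interval -0.03 to 0.45, adjusted p = 0.133) was not called.

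Cebpb (chromosome 2, 167688915 to 167690418, plus strand; ENSMUSG00000056501), a gene of a single exon, measured 67.6, 73.5 and 113 CPM (lowest, median and highest) in fibrotic libraries. In FLO libraries it measured 30.2, 39.7 and 52.4 CPM. Every fibrotic library lay above every FLO library, and fibrotic library 4 was the highest. The means were 81.1 ± 17.5 and 41.1 ± 8.24 CPM (SD, n = 6), a 1.98-fold rise (log2 fold change 0.98, SE 0.15, 95% interval 0.67 to 1.30, adjusted p = 6.26e-05). Its change exceeded that of 85.7% of tested genes in size. Over the other settings it stayed between 0.87 and 1.18 and was called in each (adjusted p from 6.17e-09 to 0.000276), with 0.94 without FLO library 3 and 0.87 without fibrotic library 4.

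Cebpb stayed below Cebpa in every library, by less in fibrotic livers. The log2 ratio of Cebpb to Cebpa was -3.18 ± 0.53 (SD, n = 6) in FLO and -2.42 ± 0.30 (SD, n = 6) in fibrotic livers, a difference of 0.76 (two-sided exact permutation test, p = 0.0195, adjusted over 5 ratios 0.0487). It was above the FLO median in 6 of 6 fibrotic libraries, and the groups overlapped. The adjusted p rose to between 0.0541 and 0.0974 without any one of fibrotic libraries 1, 2, 4, 5 and 6 or FLO libraries 1, 2 and 4, with differences between 0.63 and 0.81. Without FLO library 3 it was 0.66 (exact permutation, adjusted p = 0.0406).

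The genes with profiles closest to Cebpb over the 12 libraries were Stk10, Rhog and Ginm1, out of 11387 genes compared (average log2 CPM of 1 or more). Their root mean square differences from Cebpb in centred log2 CPM were 0.15, 0.16 and 0.16. A protein-coding gene on the opposite strand, Tmem189, shares exon positions with Cebpb, and the sources do not say whether counting used strand, so reads of the pair cannot be told apart where they overlap. Tmem189 had 775 to 1365 counts in FLO and 1059 to 1735 in fibrotic libraries, and its log2 fold change of 0.35 was not called (adjusted p = 0.0587).

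Genes listed as acute phase genes of C/EBP-beta split in direction. How far each of them, Crp and Saa4 included, responds to C/EBP-beta or to the acute phase in mouse was not tested. Of 16, 5 were called higher, 4 were called lower and 7 were not called, with a median of 0.26. Among all tested genes 15.9% were called higher and 14.0% lower. Crp, C-reactive protein, fell from 133 ± 22.1 to 16.7 ± 5.81 CPM (SD, n = 6; log2 fold change -2.99, adjusted p = 1.34e-07). The serum amyloid genes Saa2 and Saa4 fell by 1.91 and by 1.20 on the log2 scale (adjusted p = 0.001 and 0.000224). Orm3, an orosomucoid gene, rose from 29.9 ± 13.1 to 64.9 ± 19.9 CPM (SD, n = 6; log2 fold change 1.12, adjusted p = 0.00412), a call lost without FLO library 2 or fibrotic library 1 or 4 (log2 fold changes up to 1.07, adjusted p from 0.01001 to 0.0123). Saa2 and Orm3 have near-identical copies, so their values are uncertain. Fga, a fibrinogen chain, with -0.11 (0.09 under total-count scaling), and Hp, haptoglobin, with 0.22, were not called (adjusted p = 0.557 and 0.411). Acute phase genes called higher came to 2 without fibrotic library 4 or FLO library 2, and to 4 or 5 without any other single library, FLO library 3 included. The number called lower was 4 or 5 throughout.

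Target genes of C/EBP-alpha numbered 8, of which 1 was called higher and 3 were called lower, against 15.9% and 14.0% of all tested genes. Their median was -0.41. Gys2, liver glycogen synthase, fell from 204 ± 38.9 to 82.8 ± 20.6 CPM (SD, n = 6; log2 fold change -1.30, adjusted p = 2.25e-05). Pck1 and F9, given above, were the others called lower. This list shares genes with that of FOXA targets, Pck1, Tat and Ttr among them. It also shares genes with that of HNF4A targets, Pck1, F9 and Ttr among them. The medians of these lists are therefore not independent. Cps1, which begins the urea cycle, rose from 1976 ± 510 to 3269 ± 954 CPM (SD, n = 6; log2 fold change 0.73, adjusted p = 0.00646), a call lost without any one of FLO libraries 2, 4, 5 and 6 or fibrotic libraries 1, 2, 3 and 4 (0.57 to 0.75, adjusted p from 0.01007 to 0.0183), which left 0 of the 8 called higher. Tat, tyrosine aminotransferase, had 0.29 and was not called (adjusted p = 0.338).

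**Figure D4:**
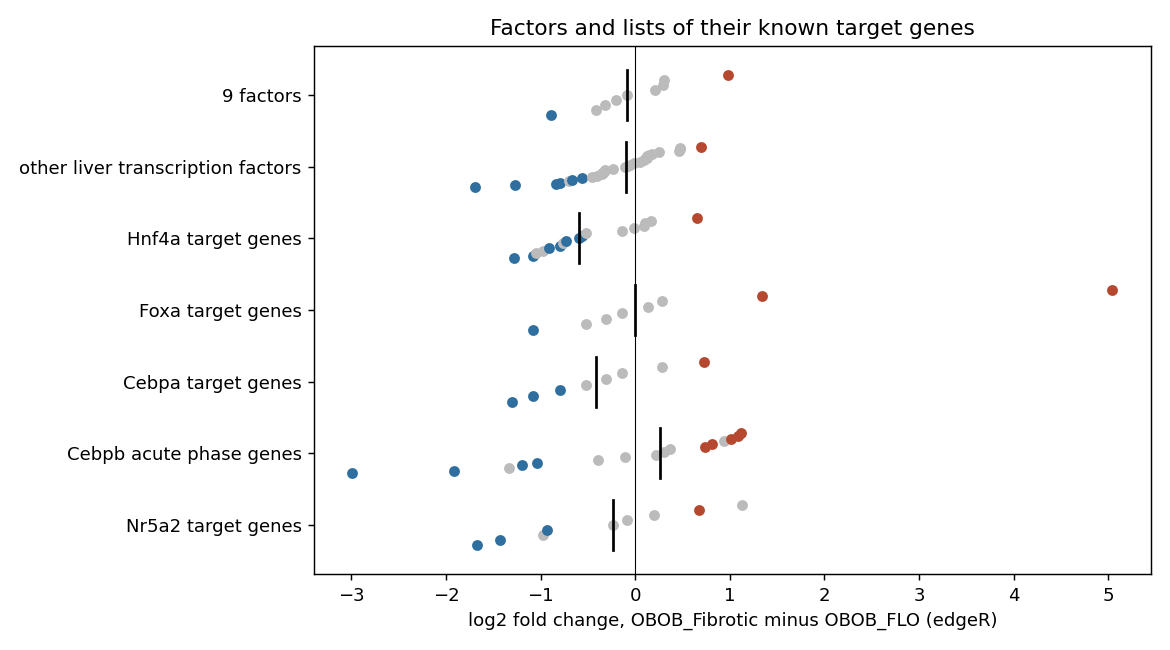
Log2 fold change (OBOB_Fibrotic minus OBOB_FLO, edgeR) of each tested gene in the 9 factors, in other liver transcription factors and in lists of known target genes, with genes called higher in red, called lower in blue and not called in grey. Black lines are medians, which run from -0.59 for HNF4A targets to 0.26 for acute phase genes. Some genes are in several lists.

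Onecut1 (chromosome 9, 74861921 to 74891781, plus strand; ENSMUSG00000043013), or HNF6, acts in hepatocytes and in bile duct development, and was the least abundant of the factors. It measured 1.62, 2.74 and 3.52 CPM (lowest, median and highest) in fibrotic libraries and 3.35, 4.46 and 7.59 CPM in FLO libraries, from 32 to 155 counts. All 6 fibrotic libraries lay below the FLO median, and the groups overlapped by 1 library on each side. The means were 2.63 ± 0.698 and 4.89 ± 1.54 CPM (SD, n = 6), so that Onecut1 in fibrotic livers stood at 0.538 of its FLO level (log2 fold change -0.89, SE 0.22, 95% interval -1.37 to -0.42, adjusted p = 0.0036). FLO library 4 was the highest, and without it the call was lost (-0.73, adjusted p = 0.0103). Under total-count scaling it was lost as well (-0.71, adjusted p = 0.016). The call was kept without FLO library 3 (-0.90, adjusted p = 0.00656). The closest profiles were those of Usp28, Accs and Tcf19, with root mean square differences of 0.25, 0.27 and 0.28, farther than the neighbours of Cebpb.

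Prox1 (chromosome 1, 190118035 to 190170714, minus strand; ENSMUSG00000010175) is expressed in hepatocytes and in lymphatic endothelium. It measured 47.0, 57.9 and 76.9 CPM (lowest, median and highest) in fibrotic libraries and 69.4, 80.9 and 89.3 CPM in FLO libraries. No fibrotic library reached the FLO median, and FLO library 3 was the lowest of its group. The means were 59.8 ± 11.97 and 79.8 ± 7.04 CPM (SD, n = 6), with -0.42 as the log2 fold change (SE 0.12, 95% interval -0.67 to -0.17, adjusted p = 0.00776). This passed the adjusted p but not the fold limit, so Prox1 was not called. Without fibrotic library 2 it was called (-0.50, adjusted p = 0.00148). Leaving out FLO library 3 gave -0.45 (adjusted p = 0.00649). The endothelial and lymphatic markers, which Prox1 shares in part, had 1 of 7 called lower, where 14.0% of all tested genes were. Their summed level was 114 to 160 CPM in fibrotic and 163 to 181 CPM in FLO libraries. Their part in the level of Prox1 was not tested.

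Prox1 relative to its partner Hnf4a had a log2 ratio of -2.64 ± 0.25 (SD, n = 6) in FLO and -3.00 ± 0.29 (SD, n = 6) in fibrotic livers. The difference was -0.36 (two-sided exact permutation test, p = 0.0476, adjusted over 5 ratios 0.0595), and it passed 0.05 without FLO library 3 (-0.43, exact permutation, adjusted p = 0.0406) and without fibrotic library 3 (-0.42, exact permutation, adjusted p = 0.0352).

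Transcripts annotated antisense to Hnf4a and Prox1 were called lower, while neither partner was, and the difference within a pair was not tested. Hnf4aos had 0, 5, 7, 7, 13 and 16 counts in fibrotic and 24, 27, 27, 31, 32 and 34 counts in FLO libraries. The groups were apart, by -1.90 on the log2 scale (SE 0.42, adjusted p = 0.00137), or -1.91 (adjusted p = 0.00269) without FLO library 3. Prox1os had 15, 15, 15, 16, 18 and 18 counts in fibrotic libraries and 54, 58, 61, 65, 70 and 142 counts in FLO libraries. The highest was FLO library 3, and the groups were apart with and without it. The log2 fold change was -2.22 (SE 0.22, adjusted p = 1.08e-06), or -2.03 (adjusted p = 1.2e-06) without that library. Exons of Prox1os and Prox1 overlap, those of Hnf4aos and Hnf4a do not, and reads of antisense partners cannot be told apart without strand where they overlap. Gm45091, antisense to Cebpa, had 8 to 28 counts in FLO and 2 to 7 in fibrotic libraries and did not pass the filter. Gm20649, which shares exon positions with Onecut1, and Gm28172, antisense to Prox1, had at most 13 counts, Gm25881 within Hnf4a had 0, and none of these 3 was tested.

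**Figure D5:**
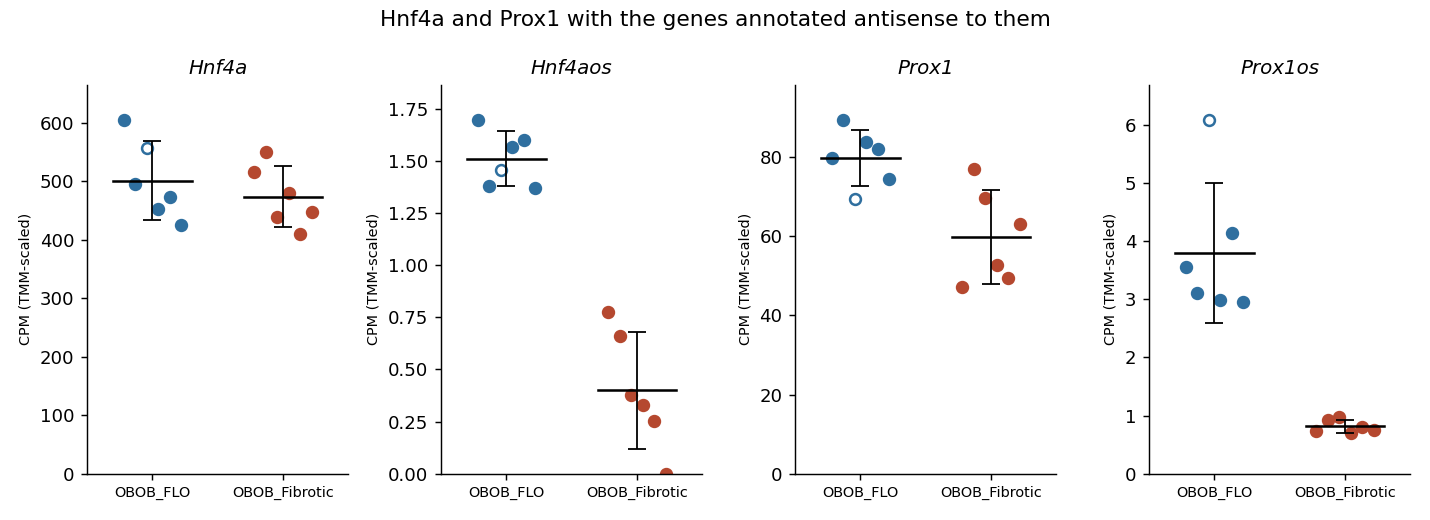
Level in CPM of Hnf4a and Prox1 and of the genes annotated antisense to them, in 6 OBOB_FLO (blue) and 6 OBOB_Fibrotic (red) libraries, with means as lines, SDs as bars and FLO library 3 as an open circle. Hnf4aos and Prox1os are apart between groups, from 1.51 to 0.399 CPM and from 3.80 to 0.814 CPM on average, while Hnf4a and Prox1 overlap.

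Beyond the 9, 30 other liver transcription factors were examined, of which 1 was called higher and 6 were called lower. Over all tested genes the shares were 15.9% higher and 14.0% lower. The median of the 30 was -0.09, which turned to 0.09 under total-count scaling. The largest falls were in Dbp, Onecut2, Atf5 and Tef. Dbp and Tef are clock-driven PAR leucine-zipper factors. The time of day of liver collection is not among the sample details used here, and its part in these values was not tested. Dbp fell from 122 ± 20.9 to 37.7 ± 15.4 CPM (SD, n = 6; log2 fold change -1.70, adjusted p = 0.000183), and Tef fell by 0.80 on the log2 scale (adjusted p = 1.67e-05). Onecut2, the paralog of Onecut1, fell from 52.1 ± 4.05 to 21.6 ± 5.44 CPM (SD, n = 6; log2 fold change -1.27, adjusted p = 4.17e-06), with groups apart. Both Onecut genes were called lower, but the groups of Onecut1 overlapped. The call of Onecut1 was also lost without FLO library 4 and under total-count scaling. Atf5, a leucine-zipper factor of stress responses, fell by 0.84 (adjusted p = 0.0065), a call lost without any one of FLO libraries 1, 2, 3 and 6 or fibrotic libraries 3, 5 and 6 (-0.85 to -0.73, adjusted p from 0.0117 to 0.0171) and under total-count scaling (-0.68, adjusted p = 0.0134). The gene called higher was Cebpg, which pairs with other C/EBP proteins and is named because it stood alone. It rose from 44.3 ± 4.99 to 71.4 ± 6.89 CPM (SD, n = 6; log2 fold change 0.69, adjusted p = 1.39e-05). Nr1h4, the bile acid receptor FXR, had -0.05 (adjusted p = 0.733), which turned to 0.11 under total-count scaling and to 0.04 without fibrotic library 4. Called higher were 2 in place of 1 without any one of FLO libraries 3 and 5 or fibrotic libraries 3, 4, 5 and 6, and between 5 and 7 were called lower without any single library.

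In whole liver, fewer cells of a type and less RNA per cell cannot be told apart, and markers of other cells moved with the groups. The counts below stand beside 15.9% of all tested genes called higher and 14.0% called lower. Hepatocyte markers were present in all libraries, and of 16, 2 were called higher (1 without any one of FLO libraries 2, 4, 5 and 6 or fibrotic libraries 1, 2, 3 and 4) and 6 lower, with a median of -0.46 and a summed level of 83230 to 140100 CPM in fibrotic and 124200 to 135600 CPM in FLO libraries. Cholangiocyte markers, of which 10 of 12 were tested, had 7 called higher and 0 lower. The 7 came to 4 without any one of FLO libraries 1, 2, 4 and 5, and to 3 by limma-voom. They came to 9 by DESeq2 and without fibrotic library 3. Their summed level was 123 to 354 CPM in fibrotic and 64.6 to 108 CPM in FLO libraries. Spp1 was the most abundant of them, at 122 ± 63.6 CPM in fibrotic and 60.5 ± 13.4 CPM in FLO libraries (SD, n = 6). Its call (log2 fold change 1.01, adjusted p = 0.00921) was lost, among other settings, by limma-voom and without FLO library 3 or fibrotic library 4. Which cells its reads came from was not tested. Myeloid markers, with 12 of 13 tested, had 8 called higher and 0 lower, at 314 to 654 CPM and 251 to 285 CPM. Fetal liver genes, with 4 of 7 tested, had 3 called higher (1 by limma-voom), at 18.2 to 168 CPM and 4.59 to 20.7 CPM. Cebpb is expressed in myeloid cells too, and Onecut1 and Foxa2 in cholangiocytes, and the part of those cells in the values above was not tested. Adipocyte markers passed the filter in 0 of 4 cases, with at most 6.16 CPM summed. Of 7 pancreatic acinar markers, 3 were at 0 in every library and 1, Cela2a, was tested and called higher, while the summed level did not exceed 4.79 CPM.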

How the data were processed

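The deposited data are 1 table of raw, unnormalized counts for 12 liver libraries, with a row for each Ensembl gene. The submitters' processing notes name bcl2fastq, STAR 2.7.3a and mm10. The mouse annotation and the use of strand in counting are not given in the sources used here, although the study's methods name a stranded poly(A) kit. Group and replicate number came from the sample titles, with 6 mice a group, and each library is 1 mouse. Symbols matched 51745 of 56205 identifiers, and those without a symbol held 0.0587% of counts. Total counts ran from 17815568 to 24814263, and SDs between libraries include counting error.

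The test was edgeR (version 4.0.16, under R 4.3.3) by quasi-likelihood, with robust dispersions, TMM scaling and the filterByExpr filter, and p was Benjamini-Hochberg adjusted over 13416 genes. Calls needed an adjusted p of 0.01 or less and an absolute log2 fold change over 0.5. SE was the absolute log2 fold change over the square root of F. CPM are TMM-scaled, log2 CPM used a prior count of 2, and levels per kb used exon lengths of GENCODE M21. Ratios between factors were compared by two-sided exact permutation over 924 assignments (smallest p 0.00216), adjusted over 5. Within groups, all 30 pairs of libraries differed by more than sampling noise (smallest chi-square per degree of freedom 10.3). The fit was tested on simulated data.

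The 9 factors and all gene lists were chosen with earlier results of these data known. Named genes are the 9 factors, in every target list up to 4 called genes with the largest change and 2 uncalled genes with the smallest (mean log2 CPM of at least 1), the 3 nearest profiles of each called factor and overlapping genes; cell type marker lists are given by their counts and summed levels. Some genes that the rule names, and 1 motif searched, are not reported here; list counts and medians include all tested members. Alternatives were other scalings, filters, thresholds, DESeq2 1.42.0, limma-voom (limma 3.58.1), dispersions without the robust option, a sex factor, a replicate block and leaving out each library. Total-count scaling was chosen after seeing the data. The labels name no batch, so none could be compared within.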

Additional observations from a re-analysis of the deposited data

Results flagged for a closer look

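Within each group, the lowest and highest libraries were examined by their distance to the nearest other library, as a share of the whole range, for the CPM of the 9 factors and for the 5 ratios. Of 28 such groups of 6 values, 1 passed Dixon's 95% limit for 6 values, where chance gives about 1.4. It was the log2 ratio of Foxa3 to Foxa2 in fibrotic livers, where library 4 lay lowest at -1.36, at a distance of 0.644 of the range. The same library had the highest Foxa2 (31.7 CPM), the lowest Foxa3 (12.3 CPM), the highest Cebpb (113 CPM) and the highest TMM factor (1.20). Without it the Foxa3 to Foxa2 difference was -0.48 (exact permutation, adjusted p = 0.0974).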

How the results depend on the processing

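Of 207 refitted log2 fold changes of single factors, 202 kept their direction and their side of the limits, and 5 did not. Under total-count scaling, which raised the median of all genes to 0.20, Hnf4a turned to 0.10, 2 factors were called higher (Cebpb, Foxa2) and 0 lower. With no fold limit 2 factors were called lower (Onecut1, Prox1) and 12 of the other transcription factors were called. Leaving out single libraries gave 0 to 2 factors called lower. Over the same omissions the ratio differences ran from 0.63 to 0.89 for Cebpb to Cebpa, from -0.72 to -0.48 for Foxa3 to Foxa2, from -0.64 to -0.40 for Foxa1 to Foxa2 and from -0.43 to -0.26 for Prox1 to Hnf4a. The cause of these changes was not tested. Replicate numbers did not pair the samples: same-numbered libraries deviated together with r between -0.16 and 0.10, and 0 of 6 correlated best with their own number. With a replicate block 3780 genes were called in place of 4012, 1 factor was called higher and 1 lower, and the differences of 0.76 (Cebpb to Cebpa) and -0.64 (Foxa3 to Foxa2) had adjusted p = 0.117 by exact sign flips. A low count limits Onecut1 (at least 32) and Hnf4aos (0 to 34).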
